A study of Mus musculus with 4 samples.

Results

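Myod1 and Otog are neighbouring genes on mouse chromosome 7, and the DNA between them holds the gene of MUNC, the long noncoding RNA whose chromatin contacts the study mapped. The members described here are the 2 genes, Myod1 and Otog, out of 410 symbols on the authors' list of genes adjoining MUNC peaks, and the 2 peaks that lay between them, out of 256 peaks in the whole list and 7 on chromosome 7. They were chosen by symbol and by position, without use of any measured level.

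The peaks came from ChIRP-seq, in which biotinylated DNA probes antisense to an RNA pull it out of crosslinked chromatin with the DNA that it touches. The cells were wild-type C2C12, an established mouse myoblast line, described in the growth protocol as PAX7 NEG, and all groups shared this background. There were 2 libraries with MUNC probes and 2 with lacZ probes, the negative control. Each of the 4 libraries carries myotubes as its tissue and myoblasts in its source name, while the protocols describe growth in 20% FBS and differentiation in 2% HS, with 3 days for the condition called DM3. C2C12 is 1 clonal line, and its identity cannot be checked from a list of positions.

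Myod1 encodes MyoD, a basic helix-loop-helix transcription factor that binds E-box DNA with E-protein partners and turns on the skeletal muscle programme. Its transcription in muscle precursors is known to depend on enhancers upstream of its start, the distal regulatory region close to the gene and the core enhancer farther away. MUNC, also called DRReRNA, is an RNA transcribed from the distal regulatory region and is known to promote the expression of myogenic genes in C2C12 cells. Otog encodes otogelin, a glycoprotein of the acellular membranes of the inner ear, and has no established role in muscle.

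In the RefSeq table of GRCm38.p6, the same build as the mm10 named in the submitters' processing notes, Otog occupied chr7:46240987-46311434 (70448 bases, plus strand) and Myod1 chr7:46376474-46379092 (2619 bases). The table that gives strand had no entry for Myod1, which was taken to be on the plus strand from general knowledge. MUNC was in the table as the lncRNA gene Gm45923, with Munc and DRReRNA as its other symbols, at chr7:46371403-46372492 on the plus strand. The gene is 1090 bases long, begins 5071 bases upstream of the Myod1 start and ends 3982 bases upstream of it. All 3 genes are thus read in the same direction, in the order Otog, MUNC, Myod1.

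The sequence at the beginning of the MUNC gene is shown because a peak of the list starts inside it. The window is chr7:46371153-46371452, plus strand, from RefSeq on GRCm38.p6, and runs from 250 bases before the annotated MUNC start to 50 bases from it onward. Capitals mark the 137 bases that lie inside the peak.

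MUNC (Gm45923): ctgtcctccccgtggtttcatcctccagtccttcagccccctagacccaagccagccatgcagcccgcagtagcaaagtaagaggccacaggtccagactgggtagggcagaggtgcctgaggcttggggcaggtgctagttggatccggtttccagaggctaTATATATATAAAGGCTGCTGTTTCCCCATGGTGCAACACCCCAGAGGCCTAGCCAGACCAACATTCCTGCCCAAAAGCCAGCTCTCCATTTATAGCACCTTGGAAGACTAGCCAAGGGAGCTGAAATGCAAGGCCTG

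The 2 peaks between Otog and Myod1 lay on the MUNC gene itself. The peak farther from Myod1 ran from 46371315 to 46371714 as deposited, a width of 399 bases, and the peak nearer to Myod1 ran from 46371892 to 46372632, a width of 740 bases. The farther peak began 87 bases before the annotated MUNC start and shared 312 bases with the gene, or 78.2% of the peak. The nearer peak shared 600 bases with the gene, or 81.1% of the peak, and ended 140 bases beyond the annotated MUNC end. Together the peaks covered 912 of the 1090 bases of the MUNC gene (83.7%), and 80.1% of their own 1139 bases lay inside it.

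The only bases of the MUNC gene outside a peak were the 178 bases between the 2 peaks. This gap ran from base 313 to base 490 of the gene, 16.3% of its length. Both ends of the gene were therefore under a peak, and the uncovered stretch was internal. The exons of MUNC and the positions of the probes were not used here, so the gap was not compared with either.

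**Figure D1:**
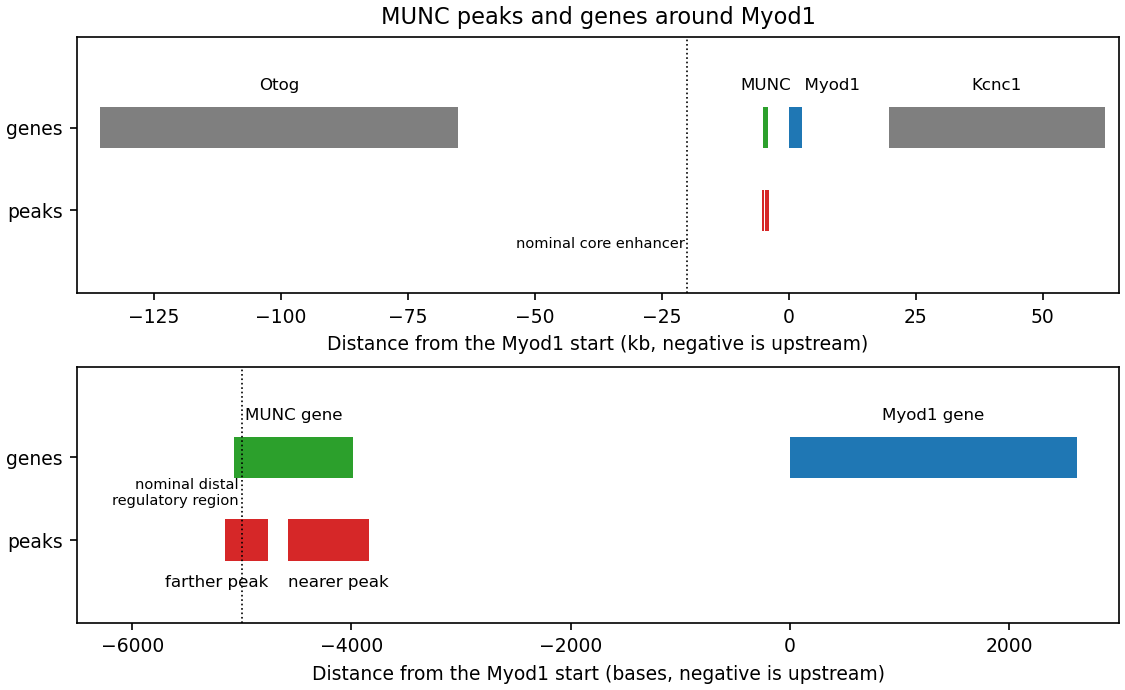
Genes and MUNC peaks drawn to scale by distance from the Myod1 start, in kb above and in bases below, with negative values upstream. The red boxes are the 2 peaks, which together cover 83.7% of the MUNC gene (green). The dotted lines mark the nominal positions of the upstream enhancers of Myod1, 20 kb and 5 kb upstream, which come from general knowledge and not from the files.

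Relative to Myod1, the midpoint of the farther peak was 4959 bases upstream of the start and that of the nearer peak 4211.5 bases. From edge to edge the farther peak spanned 5158 to 4760 bases upstream and the nearer peak 4581 to 3842 bases. No peak lay on Myod1 itself, on the 3841 bases just before it, or on Otog. The distal regulatory region is usually placed about 5 kb upstream of Myod1, and a point 5000 bases upstream fell inside the farther peak. The core enhancer is usually placed about 20 kb upstream, and a point 20000 bases upstream was 14842 bases from the nearest peak. These are nominal distances, the enhancers' own boundaries were not used here, and 1 point does not stand for a whole element.

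The interval from the end of Otog to the start of Myod1 was 65039 bases long. Its first 59881 bases, 92.1% of it, held no peak. The peaks covered 1.75% of the interval, and the MUNC gene makes up 1.68% of it. The peak bases were thus gathered at the Myod1 end of the interval, on the RNA's own gene.

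The labels' protocols state that the probes were complementary to MUNC genomic sequence. The MUNC gene is therefore the DNA that matches the probes, and DNA captured through MUNC RNA at its own gene and DNA captured by the probes directly cannot be told apart from these positions. The lacZ probes are directed at a bacterial sequence. Neither list separates the libraries. MUNC signal and lacZ signal at the gene were therefore not compared, and no position or width given here has a replicate error. Peaks and genes are not replicates, and the comparisons below are descriptions without a test.

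The cover of the MUNC gene was set beside that of the other genes under a peak. Of the 256 peaks, 130 (50.8%) overlapped at least 1 base of an annotated gene, and they touched 131 genes, of which 106 were protein-coding, 23 were lncRNA genes and 2 were of other kinds. Among these genes MUNC had the highest share of its length covered, 83.7%. The next was the lncRNA gene Gm39430, 2535 bases long, with 14.9%, and the third was Ranbp6, a gene of the importin family, with 8.10%. The median over the 130 genes other than MUNC was 0.171%.

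The share covered depends on gene length. MUNC was the shortest of the 131 genes, while the median length of the others was 135802.5 bases. A peak of usual width can cover little of a gene that long. Among the 8 overlapped genes of at most 15000 bases, MUNC again had the highest share.

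**Figure D2:**
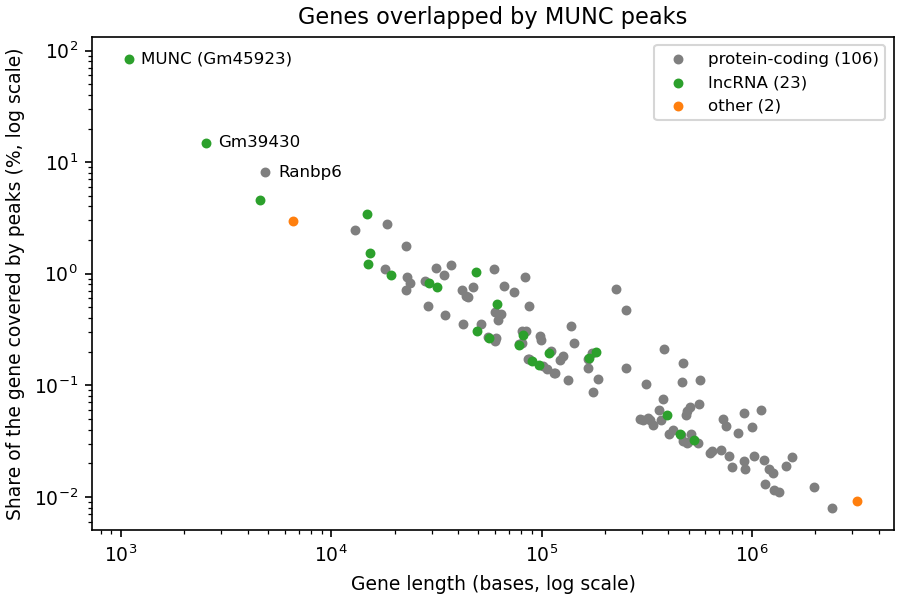
Share of each overlapped gene that peaks cover (percent, log scale) against gene length (bases, log scale), 1 point per gene, coloured by gene type. MUNC stands at the upper left with 83.7% covered, above Gm39430 with 14.9%, and the share falls with length over the other genes.

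MUNC was also 1 of 5 genes overlapped by 2 peaks. The others were Abcc4, an efflux transporter, Arhgap32, Pced1b and Zfp407, and no gene was overlapped by 3 or more. Over the whole list, 4 pairs of peaks lay less than 1000 bases apart. The gap on MUNC was the shortest of the 4, ahead of 274, 311 and 570 bases on chromosomes 3, 14 and 9. In 3 of the 4 pairs 1 gene overlapped both peaks, and these genes were MUNC, Abcc4 and Arhgap32, with lengths of 1090, 225165 and 251819 bases. Read as 1 region, the pair on MUNC was 1317 bases wide, against 1954 bases for the pair in Abcc4 and 1764 bases for the pair in Arhgap32, and it ranked 3 by width among the 252 regions left after close peaks were merged.

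The farther peak also touched the annotated start of its gene. Of the 256 peaks, 3 (1.17%) overlapped a 300-base promoter window in the RefSeq table, which holds 32851 windows for 27025 symbols and is not complete. Only 239 of the 256 peaks were on chromosomes for which the windows gave strand information, so the other peaks had no window to overlap. The windows were those of MUNC, of Rab31 (a small GTPase of vesicle traffic) and of Gm39430, with 137, 153 and 142 bases inside the peak. The table sets its windows at starts that differ from the outer edge of the gene for some genes, and 73.4% of genes had a window at that edge, MUNC among them. With windows of the same span set at the gene edges, 5 peaks overlapped 1, the added ones being at Nfxl1 and Stn1. The midpoint of the farther peak was 112 bases from the MUNC start. No peak midpoint was closer to the start of a gene of known strand, over the 239 peaks on chromosomes with strand information. The midpoint of the nearer peak was 859.5 bases from the MUNC start, which ranked 7. Over those 239 peaks the median distance was 65130 bases. Strand was known for 27026 of 49943 genes, so closer starts of other genes could be missed. By distance to either end of any gene, over all 256 peaks, the farther peak ranked 2 and the nearer peak 6. The lowest value was then 68 bases.

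The letters of the MUNC window were searched for motifs on both strands. CANNTG, the E-box bound by MyoD and its relatives and its own reverse complement, occurred at 1 place, as CAGGTG 120 bases upstream of the MUNC start. That place is outside the peak, and the 137 bases inside the peak held none. CANNTG was present in 72.3% of all 32851 windows. CAGCTG, the E-box form that is included in CANNTG and is often bound by MyoD, was absent from the window and present in 16.3% of all windows. TATAAA was found at 2 places inside the peak. The first was on the plus strand, 81 bases upstream of the MUNC start, within the run of TA repeats seen in the capitals, and the other was on the minus strand, beginning 1 base after the annotated start. TATAAA was present in 13.6% of windows. The MEF2 motif, named for muscle transcription factors that work with MyoD, was not found in the window and was present in 3.19% of all windows.

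The window was 56% G+C, and its part inside the peak 50.4%. The median over all windows was 52.7%. The windows of Rab31 and Gm39430 were 60.3% and 45% G+C. They held 3 and 4 copies of CANNTG, of which 1 and 2 were inside the peak. CAGCTG occurred 2 times in the Gm39430 window and in neither of the others. TATAAA was found in neither of them. Of the motifs searched, only CANNTG was thus in all 3 table windows touched by a peak. Since 72.3% of all windows hold CANNTG, its presence in these 3 says little, and in the MUNC window it was outside the peak.

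Both peaks were wide for the list. On chromosome 7 the nearer peak ranked 1 by width and the farther peak ranked 2, and over the whole list they ranked 6 and 33. The 5 other peaks of the chromosome were 148 to 357 bases wide with a median of 241 bases, so the groups did not overlap in width. The median over all 256 peaks was 236 bases, and 31 peaks outside the locus were at least as wide as the farther one.

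The 5 other peaks of chromosome 7 lay in surroundings of several kinds. The peak from 10523226 to 10523583, 357 bases wide, was between Zik1, a zinc finger gene, and Vmn1r68, a vomeronasal receptor gene, and its midpoint was 3805 bases from an end of Vmn1r68. Of the other peaks outside protein-coding genes on the chromosome, it was the only one as close to such a gene as the MUNC peaks. The peak from 61484437 to 61484585, 148 bases wide, was 370734 bases from Gm51483 and 863692 bases from Ndn, which encodes the growth suppressor necdin. The peak from 69472753 to 69473101, 348 bases wide, was 723516 bases from Arrdc4 and 878845 bases from Nr2f2, which encodes the nuclear receptor COUP-TFII. The last 2 were inside genes. The peak from 73494430 to 73494578, 148 bases wide, was in Chd2, a chromatin remodeller, and the peak from 91649908 to 91650149, 241 bases wide, was in Dlg2, a synaptic scaffold gene.

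Distance to an end of a protein-coding gene therefore varied widely over the chromosome. From peak midpoint to either end of the nearest such gene it was 4959 and 4211.5 bases at the MUNC gene, Myod1 being the nearest in both cases, and 3805 to 799217 bases at the other 5 peaks, with a median of 370807.5 bases. Peaks inside a gene were also measured to its end, with 47241.5 bases in Chd2 and 799217 bases in Dlg2. The MUNC peaks fell inside that range, and over all 256 peaks they ranked 22 and 19 from the shortest, where the median was 96119.5 bases. These ranks do not count a peak inside a gene as near it, and only 147 of the 256 peaks were in no protein-coding gene. The midpoint of each MUNC peak was 747.5 bases from that of the other. For the other 5 peaks the nearest peak on the chromosome was 4.02 to 35.8 Mb away.

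The locus was also rich in genes. Within 500000 bases of either midpoint there were 24 protein-coding genes, against 0 to 13 for the other chromosome 7 peaks, so the groups did not overlap at this window. They did overlap within 100000 bases, where the MUNC peaks had 4 genes and the others 0 to 4. Within 500000 bases the median over the whole list was 4 genes, and 8 peaks outside the locus had 24 or more.

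**Figure D3:**
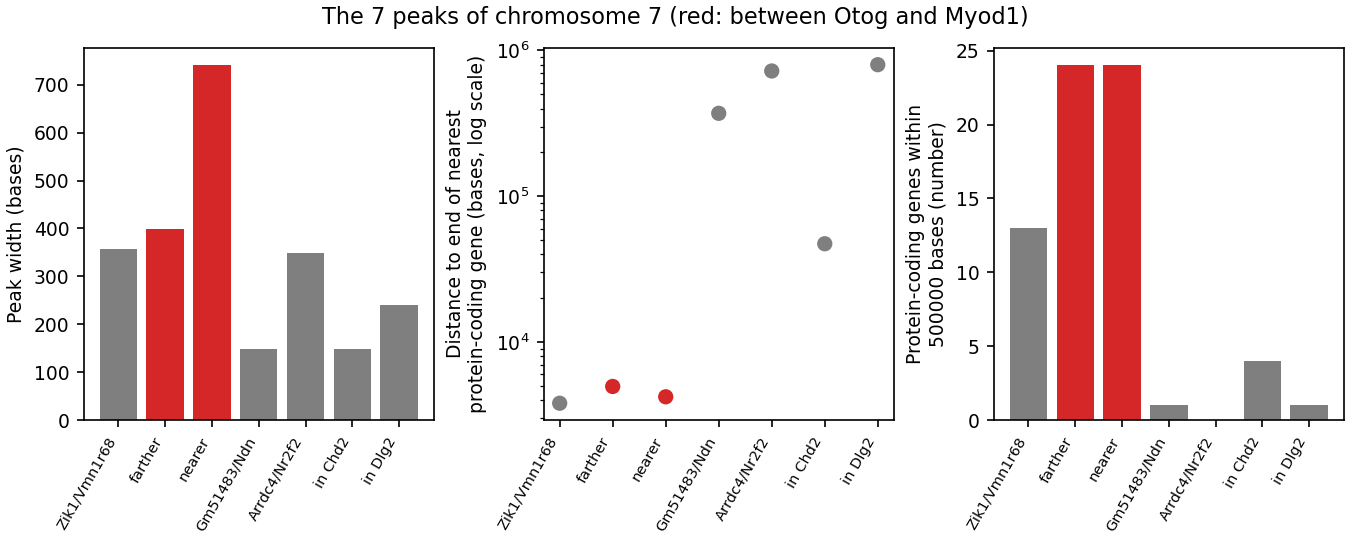
The 7 peaks of chromosome 7 in order of position, named by flanking or spanning gene, with peak width in bases, distance from the midpoint to either end of the nearest protein-coding gene in bases (log scale) and the number of protein-coding genes within 500000 bases. The red marks are the peaks between Otog and Myod1, which were the widest, at 399 and 740 bases, and had 24 genes around them against 0 to 13 elsewhere.

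Turning to the listed genes, Myod1 and Otog were the protein-coding neighbours of the MUNC peaks on either side. Of the 24 protein-coding genes within 500000 bases of the Myod1 start, 2 were listed, and these were Myod1 and Otog. Of all 21887 protein-coding genes, 399 (1.82%) were listed. Both members were chosen from the list and the window was centred on Myod1, so these 2 were fixed in advance. The share around Myod1 therefore cannot be set against that over all genes. On the Otog side the next gene was Ush1c, whose product harmonin works in the hair cells of the inner ear, 132826 bases from a peak. Beyond it were Abcc8 and Kcnj11, the subunits of the ATP-sensitive potassium channel of the pancreatic beta cell, at 191277 and 270364 bases. On the other side Kcnc1, a voltage-gated potassium channel gene, was 23587 bases from a peak, which is closer than Otog at 59882 bases, and was not listed. Sergef followed at 70527 bases, and Tph1, the enzyme that starts serotonin synthesis outside the brain, at 272009 bases. Ldha, the muscle form of lactate dehydrogenase, was 469642 bases away.

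A listing of both flanking genes was the most frequent outcome for peaks outside protein-coding genes. Of 147 such peaks, 84 had both neighbours on the list, 49 had 1 and 14 had none. The MUNC gene was under both peaks and was not on the list by any of its 3 symbols. Listed lncRNA genes were rare altogether, 3 of 12727 in the table (0.0236%), and of the 23 lncRNA genes under a peak 0 were listed. The rule that joined genes to peaks is not given in the sources used here.

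Myod1 and Otog differed in how near they were to a peak. The start of Myod1 was 3842 bases from the nearest peak and ranked 12 among the 302 listed genes whose strand was known, 11 being closer. Its neighbours in that order were C1qtnf3, Ranbp6 and Yme1l1 at 3396, 3595 and 3641 bases, and Thoc7, Vmn1r68 and 4930523C07Rik at 4025, 4586 and 5295 bases. Of these 6 genes C1qtnf3, Ranbp6, Yme1l1 and Thoc7 had a peak inside the gene, which Myod1 did not. The start of Otog was 130329 bases from the nearest peak and ranked 132, between Rasgrf2, Gpr155 and Negr1 at 125709 to 127150 bases and Slit2, Gli3 and Map7d3 at 130571 to 137544 bases. The median over the 302 genes was 169557 bases. Because the list was made from the peaks, closeness to a peak is a property of how it was made.

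For Otog the value depended on the end of the gene measured. Its 3′ end faces the MUNC gene, so the gene body was 59882 bases from a peak, and by gene body Otog ranked 186 and Myod1 113 among the 408 listed genes that could be matched, of which 101 had a peak inside. The median by gene body was 87177 bases.

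**Figure D4:**
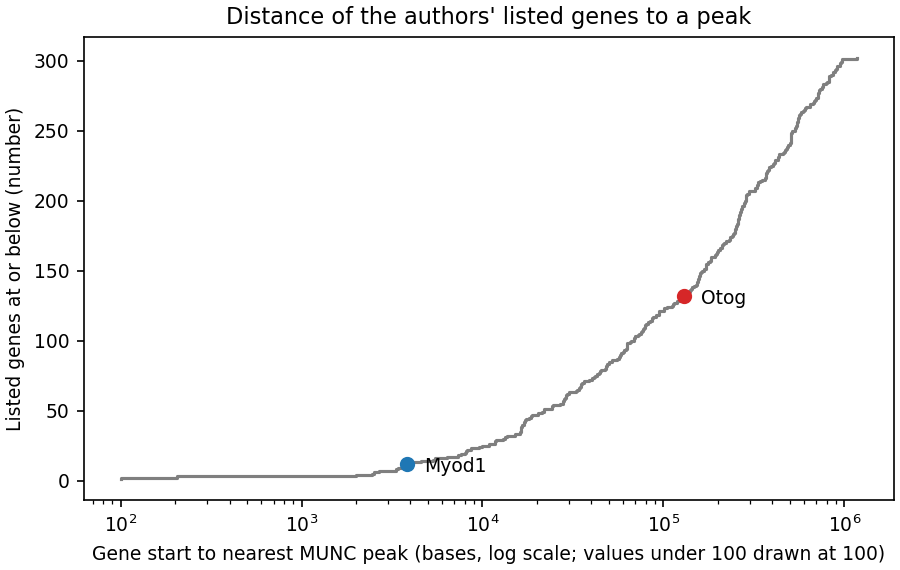
Number of listed genes at or below each distance from gene start to nearest MUNC peak (bases, log scale), over the 302 genes with a known strand. Myod1 stands near the lower end at 3842 bases and Otog near the middle at 130329 bases.

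Genes that work with or under Myod1 were looked up through 2 short lists, which do not hold all such genes. Of 26 regulators and partners of Myod1, including Myf5, Myf6 and Myog of its own family, E-protein genes such as Tcf3 and MEF2 genes such as Mef2c, 0 were listed, where 1.82% of all protein-coding genes were. The nearest to a peak was Ep300, a histone acetyltransferase that acts as a coactivator of MyoD, at 206594 bases, and the median distance was 4.18 Mb. Myf5 and Myf6, which lie side by side, were 1131842 and 1141782 bases from a peak and Myog was 14487522 bases away. None of the 26 had a peak inside.

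Of 16 genes that Myod1 is known to activate in differentiating muscle, 0 were listed and none had a peak inside. The nearest to a peak was Chrna1, a subunit of the muscle acetylcholine receptor, at 50336 bases, and Mymk followed at 203863 bases. Ckm, the muscle creatine kinase, was 8887511 bases from a peak and Myh3, embryonic myosin heavy chain, 10097565 bases. The median was 8.63 Mb. Over all 21631 protein-coding genes of the autosomes and chromosome X the median distance to a peak was 4.52 Mb. The list also held muscle genes outside these 2 lists, such as Tcap, which encodes the sarcomere protein telethonin, and Xirp2, an actin-binding protein of striated muscle, both named after the list had been seen. With 26 and 16 genes and 1.82% of all protein-coding genes listed, a count of 0 says little about these groups.

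The relatives of Otog were looked up in the same way. Of 11 genes, among them Otogl, the paralogue of Otog, the tectorin genes Tecta and Tectb and the gel-forming mucin genes, 0 were listed, where 1.82% of all protein-coding genes were. Strc, which encodes stereocilin of the inner ear, was the nearest at 786926 bases, and the median was 10.2 Mb, against 4.52 Mb over all protein-coding genes. A last list, of 9 genes thought to neighbour the locus, had 8 in the table, and 0 of them were listed, where 1.82% of all protein-coding genes were. All of the 8 but Nucb2 were among the 24 protein-coding genes within 500000 bases of the Myod1 start. Their count of 0 thus repeats the result given above for those genes. Nucb2 was 24854203 bases from a peak and so is not a neighbour of the locus. With 11 and 8 genes, these counts of 0 also say little.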

How the data were processed

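ChIRP-seq libraries of C2C12 cells were made with MUNC or lacZ probes, 2 each, grouped by sample title. The submitters' processing notes name Bowtie2 2.3.4.1, MACS2 2.1.1.20160309 and mm10, without saying how each was used. Whether lacZ served as the control, how replicates were combined, the peak threshold and the sequencing depth are not given in the sources used here. The authors deposited 256 peak positions and 410 gene symbols, with no score, per the file headers.

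Starts were read as 0-based, so a width is the difference of both deposited positions. The gene table was RefSeq GRCm38.p6 (49943 genes on the autosomes, X and Y). Strand, known for 27026 genes, was taken from the promoter table, and for Myod1 from general knowledge. Of the listed symbols, 396 matched by current and 12 by older symbol. Overlap needed at least 1 base. The procedures were checked on simulated intervals and sequences. Python 3.11.15, pandas 2.3.3 and numpy 2.4.6 were used.

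The text names Myod1, Otog, MUNC, the chromosome 7 peaks, genes within 500000 bases of Myod1, any fixed-list gene on the authors' list (there was none) and the 3 listed genes on either side by distance. Genes outside this rule (Gm39430, Rab31, Abcc4, Arhgap32, Pced1b, Zfp407, Nfxl1, Stn1, Tcap, Xirp2 and the fixed-list genes named from beyond that distance) were chosen after their values were seen. Members and lists were chosen with earlier results of these data known. Without a genome sequence, the planned base composition and E-box counts of the peaks were replaced by those of promoter windows.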

Additional observations from a re-analysis of the deposited data

How the results depend on the processing

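The 20 results were recomputed under 33 alternatives in all. In 13 the value was equal or, for distances, within 1 base, or for the covered share within 0.1 percentage points, and in 20 it moved. Measured from the nearer and farther edge in place of the midpoint, the distance to the Myod1 start was 4760 and 5158 bases for the farther peak and 3842 and 4581 bases for the nearer one, as the peak width sets. With protein-coding genes only, the nearest gene start was that of Myod1, at 4959 and 4211.5 bases, and with either end of a gene the distance of the nearer peak fell from 859.5 to 229.5 bases, to the MUNC end. Merging close peaks left 1 region between Otog and Myod1, at rank 3 by width, and raised the covered share of the MUNC gene to 100%, since the gap is inside the gene. Within chromosome 7 the width ranks were 2 and 1. Otog was 59882 bases from a peak by gene body. The bases of the MUNC window inside the peak were 50.4% G+C with 0 CANNTG, and CAGCTG occurred 0 times in the window. Promoter windows set at the gene edge were overlapped by 5 peaks in place of 3. Protein-coding genes around the farther peak numbered 4 within 100000 bases, where the other chromosome 7 peaks reached 4, and 66 within 1000000 bases, where they reached 20. With starts read as 1-based the covered share was 83.8%, within the tolerance. The promoter window, gene cover and gene number alternatives were chosen after the data were examined.

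No paired analysis was possible because neither list separates the libraries; for the same reason replicates were not left out and MUNC was not compared with lacZ. Alternatives on peak sequences were not run because no genome sequence was used here. Depth was not given, so weaker sites missing from the list were not counted.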
